A study of Mus musculus with 12 samples.

Results

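The genes described here encode splicing factors and heterogeneous nuclear ribonucleoproteins (hnRNPs). They were taken by symbol, with earlier results of these data known. The rule took every gene whose symbol begins with Srsf, Sf3a, Sf3b, Snrp, Hnrnp, Prpf or Lsm and continues with further characters. It gave 75 of the 14323 genes of the count table. Their RNA was measured in naive CD8+ T cells (TCRβ+CD8+CD62L+CD44-) taken by sorting from spleens of 3 wild type mice (age not given in the labels). Cells of each mouse, at 100000 per well, were cultured for 6 h in 4 conditions, which gave 12 libraries. The wells held isotype control without anti-CD3, anti-LAIR-1 without anti-CD3, isotype control with immobilized anti-CD3, or anti-LAIR-1 with immobilized anti-CD3, each antibody at 2.5 µg/ml. Anti-CD3 (clone 145-2C11) engages the T cell receptor complex, and anti-LAIR-1 (clone 2C7) is an agonistic antibody to the inhibitory collagen receptor LAIR-1. All mice were wild type, and LAIR-1 was engaged by the antibody and not by its collagen ligand.

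Splicing removes introns from pre-mRNA in the spliceosome, a machine built of small nuclear ribonucleoproteins (snRNPs). Each of the U1, U2, U4 and U5 snRNPs carries a ring of Sm proteins around its RNA, the U6 snRNP carries a ring of LSm proteins, and the U2 snRNP recognizes the branch point with its SF3a and SF3b subunits. SR proteins and hnRNPs bind exons and introns and help decide which splice sites are used, and naive T cells change the splicing of many transcripts after activation, Ptprc (CD45) among them. The counts used here come from tags near the 3′ end of each transcript, so they do not measure splicing. Scaled to library size, they give each gene's RNA relative to the other RNA counted. Rises and falls below are therefore relative, and amounts per cell were not measured.

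Library totals ranged from 1781218 to 7725545 counts, and 3 counts corresponded to between 0.404 and 1.61 CPM (the count scaled to library size, normalized with edgeR's TMM factors over all 12 libraries). Summed levels of 9 naive CD8 T cell markers lay between 5800 and 6410 CPM without anti-CD3 and between 1770 and 2590 CPM with it, whereas 8 activation genes summed to 256 to 294 CPM and 2370 to 2970 CPM. Markers of other cells were low: Cd4 reached at most 1.63 CPM, the 4 B cell markers found 1.08 to 9.68 CPM and the 2 NK cell markers found 0 to 0.661 CPM. The 4 myeloid markers found summed to 45.7 to 63.8 CPM without anti-CD3 and 28.7 to 44.2 CPM with it, nearly all of it Cst3, while Csf1r averaged 0 CPM in 3 of the 4 groups. Mitochondrial genes took 17.6 to 20.9% of counts without anti-CD3 and 11.5 to 13.2% with it. The part of these shifts in the results was not tested, but leaving out the mitochondrial genes and the ribosomal transcript Rn45s gave the same counts of members called in each comparison. In bulk RNA, fewer cells of a type and less RNA per cell cannot be told apart. Lair1 itself was near the detection limit, at 0 to 2.44 CPM.

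Of the 75 members, 11 were Srsf, 3 Sf3a, 5 Sf3b, 11 Snrp, 18 Hnrnp, 13 Prpf and 14 Lsm genes. The prefix rule also took in Lsmem1, a membrane protein unrelated to splicing, and Lsmd1, now called Naa38, a subunit of a protein acetyltransferase. Low counts kept Hnrnpa1, Hnrnph3, Lsmem1, Srsf4 and Srsf12 out of every test, and Hnrnpul1 out of the anti-CD3 comparison with isotype. Hnrnpa1, which encodes a major nuclear RNA binding protein, had 0 to 1.35 CPM over the 12 libraries. The authors discarded reads with several equally good matches, and whether mapping or annotation lowered the count of Hnrnpa1 was not tested. Its 3′ end matched 0 other genes in the comparison of 3′ ends described below. Its low count is not read here as a measure of its expression in these cells. Srsf12 had 1.63 to 2.15 CPM (4 to 5 counts) in the unstimulated isotype libraries. In the anti-CD3 isotype libraries it had 0 to 0.302 CPM (0 to 1 counts). With anti-LAIR-1 it had 1.66 to 2.12 CPM without anti-CD3 and 0.135 to 1.06 CPM with it. These values are near the detection limit, and no difference was tested. Hnrnpul1 was tested elsewhere at 1.89 to 8.26 CPM. That left 70 members tested in at least 1 comparison.

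Most of these genes were higher after anti-CD3 when both wells held the isotype control. Of the 69 members tested, 55 were higher with anti-CD3, 6 were lower and 8 did not pass the test, against 35.3% higher and 36.1% lower among all 8690 genes tested (edgeR's quasi-likelihood test, Benjamini-Hochberg adjusted p under 0.05). The median log2 fold change was 1.11 over the members and -0.03 over all genes, and 38 members rose at least 2-fold, as did 20.8% of all genes tested. The 3 mice gave medians of 1.07, 1.15 and 1.10. In 61 members the anti-CD3 and unstimulated isotype libraries did not overlap, compared with 73.5% of all genes.

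With anti-LAIR-1 in both wells the response to anti-CD3 had the same shape. Here 55 of 70 members were higher, 5 were lower and 10 did not pass the test, while 36.4% of 9000 genes were higher and 36.3% lower. The median was 0.95 over the members and -0.04 over all genes, 33 members rose at least 2-fold (19.3% of all genes), and the groups did not overlap in 60 members compared with 74.9% of all genes. Since these 2 comparisons share no library, the members' values may be set side by side: they correlated with r = 0.968 over 69 genes (Spearman's rho 0.968), a description across genes that are not independent replicates. The rise was called in both comparisons for 54 members, and it was smaller with anti-LAIR-1 in 33 of them. Neither this count nor r was computed over all genes, so neither is a trait of the members. The test of the difference itself called 1 of 70 members. Prpf4b was called higher with isotype and not with anti-LAIR-1, Hnrnpl the reverse, and 5 members fell in both; the tests of these 2 differences are given with each gene.

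**Figure D1:**
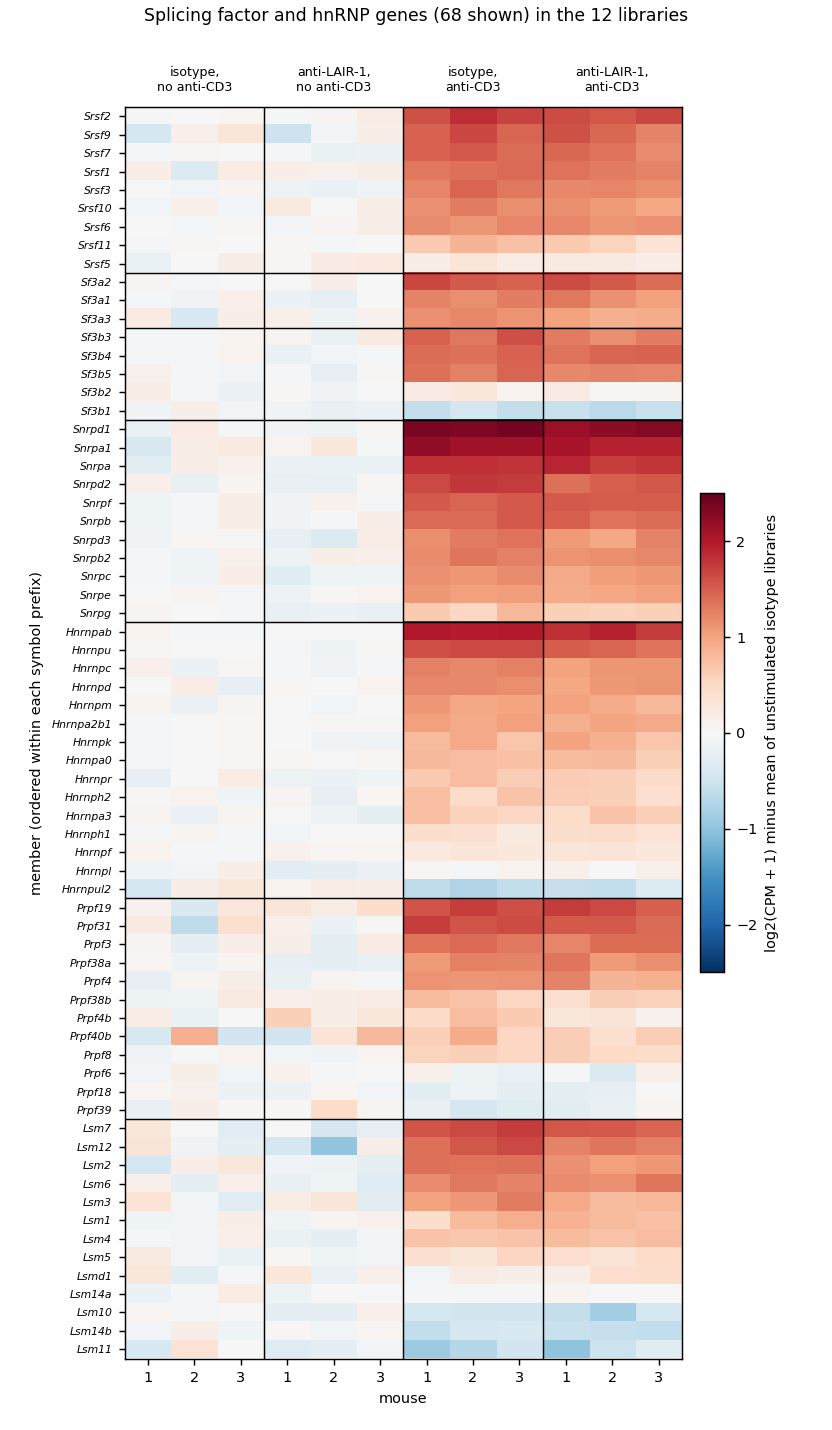
Levels of 68 of the members tested with isotype, 1 row per gene grouped by symbol prefix and 1 column per library, as log2(CPM + 1) minus the mean of the 3 unstimulated isotype libraries (red higher, blue lower). The 6 anti-CD3 libraries on the right are red in most rows, and the 6 members lower with isotype stand out as blue rows.

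Summed over all 75 members, the level was 10775, 10673 and 11023 CPM in mice 1 to 3 with isotype, and 22496, 22954 and 22816 CPM with isotype and anti-CD3. With anti-LAIR-1 the sums were 10500, 10484 and 10867 CPM without anti-CD3 and 21514, 21456 and 21217 CPM with it. The stimulated sums lay apart from the unstimulated ones, and the 3 stimulated anti-LAIR-1 sums lay below the 3 stimulated isotype sums. As a share of raw counts the members took 1.07 to 1.15% without anti-CD3 and 2.05 to 2.22% with it. The ratio of mean sums with isotype was 2.57 for the Sf3a genes, 2.55 for Srsf, 2.51 for Snrp, 2.08 for Hnrnp, 1.66 for Prpf, 1.60 for Sf3b and 1.48 for Lsm.

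**Figure D2:**
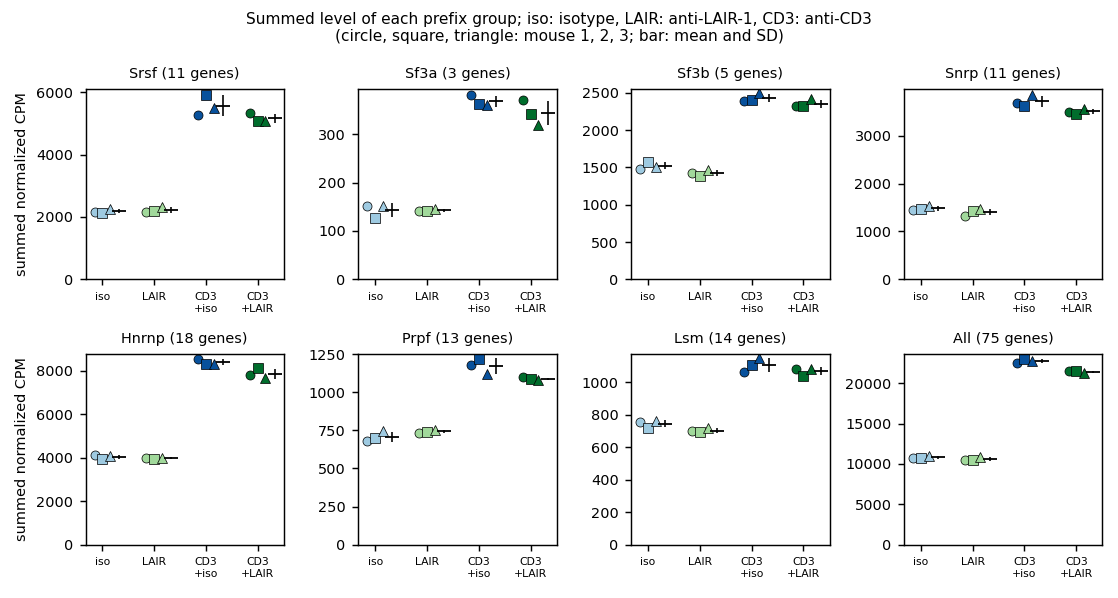
Summed normalized CPM of each prefix group in every library (y axis from 0), with circle, square and triangle for mice 1, 2 and 3 and the bar giving the mean and SD of the 3 mice. In every panel both anti-CD3 groups sit above both unstimulated groups; in the panel of all 75 genes the stimulated isotype libraries lie between 22496 and 22954 CPM and the stimulated anti-LAIR-1 libraries between 21217 and 21514 CPM.

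All 11 genes with the Snrp prefix rose in both anti-CD3 comparisons, against 35.3% of all genes with isotype and 36.4% with anti-LAIR-1. All 7 Sm core genes (Snrpb, Snrpd1, Snrpd2, Snrpd3, Snrpe, Snrpf and Snrpg), which encode the ring shared by the spliceosomal snRNPs, were higher with isotype, with log2 fold changes of 0.64 to 2.33. Snrpd1, for the SmD1 protein, had 60.1, 77.4 and 65.1 CPM in the unstimulated isotype libraries and 349, 342 and 355 CPM with anti-CD3. It rose 5.04-fold, the largest rise among the members (log2 fold change 2.33, SE 0.11, edgeR adjusted p = 6.3e-15), and the anti-LAIR-1 wells gave 62.8, 61.2 and 68.4 CPM followed by 299, 319 and 332 CPM. Snrpd2, for SmD2, rose from 103, 82.7 and 99.5 CPM to 299, 326 and 322 CPM, a log2 fold change of 1.69 (SE 0.11). Snrpg moved least of the ring, from 419, 395 and 384 CPM to 628, 572 and 709 CPM, a log2 fold change of 0.64 (SE 0.09). The libraries of each of these genes did not overlap between the groups, as in 73.5% of all genes with isotype. Snrpb and Snrpe, with log2 fold changes of 1.43 and 1.01, stood between them. Near-identical pseudogenes match the 3′ ends of Snrpe (2 of them) and Snrpf (3), and Ccdc38 lies antisense to Snrpf, so both counts are less certain.

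The U1- and U2-specific proteins rose as well. Snrpa1 (chr7:66059003-66074587, GRCm38), the U2 A′ protein, went from 16.8, 25.3 and 26.4 CPM to 108, 99.9 and 99.3 CPM with isotype, a 4.46-fold rise (log2 fold change 2.16, SE 0.15, edgeR adjusted p = 1.09e-11). Snrpa, the A protein of the U1 snRNP, had 50.5, 68.0 and 65.1 CPM unstimulated and 217, 217 and 216 CPM with anti-CD3, and rose by 1.8 (SE 0.12). With anti-LAIR-1 in both wells Snrpa rose by 1.98 (SE 0.09) and Snrpa1 by 1.90 (SE 0.12). For both genes the libraries with anti-CD3 did not overlap the unstimulated ones, as in 73.5% of all genes with isotype and 74.9% with anti-LAIR-1.

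All 3 subunits of SF3a rose with anti-CD3, as did 35.3% of all genes with isotype. Their promoters are shown beside that of Sf3b1, the SF3b subunit that fell, and those of Snrpa and Prpf4b. They were chosen with the motif matches and values known. The 120 bases before the RefSeq start site are given 5′ to 3′ on the gene's strand (RefSeq, GRCm38.p6). Capitals mark an ETS-type motif (CCGGAAG on either strand, CTTCCGG when read from the other strand) or an E-box (CACGTG). The windows are chr11:4160234-4160353 (plus strand), chr10:80798615-80798734 (plus), chr4:124714741-124714860 (plus), chr1:55027479-55027598 (minus), chr7:27196272-27196391 (minus) and chr13:34875409-34875528 (plus).
Sf3a1: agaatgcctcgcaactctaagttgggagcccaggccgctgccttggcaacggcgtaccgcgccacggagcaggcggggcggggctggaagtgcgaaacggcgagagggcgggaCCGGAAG
Sf3a2: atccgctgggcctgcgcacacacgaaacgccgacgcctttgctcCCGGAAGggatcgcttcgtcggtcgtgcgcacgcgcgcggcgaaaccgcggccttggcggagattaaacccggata
Sf3a3: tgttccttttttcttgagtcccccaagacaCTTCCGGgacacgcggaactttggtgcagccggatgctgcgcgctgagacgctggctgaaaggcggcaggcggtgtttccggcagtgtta
Sf3b1: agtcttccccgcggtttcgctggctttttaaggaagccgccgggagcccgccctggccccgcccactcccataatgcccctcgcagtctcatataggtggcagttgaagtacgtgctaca
Snrpa: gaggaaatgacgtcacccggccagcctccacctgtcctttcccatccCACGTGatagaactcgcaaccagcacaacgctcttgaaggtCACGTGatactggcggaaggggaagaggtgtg
Prpf4b: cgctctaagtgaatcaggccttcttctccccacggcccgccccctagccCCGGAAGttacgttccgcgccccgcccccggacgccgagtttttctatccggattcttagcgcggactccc

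Each SF3a window holds the ETS-type motif, the Snrpa window holds E-boxes in 2 places, and the Sf3b1 window holds neither. Promoters of 300 bases were found for 64 members, 83 windows in all. The ETS-type motif was in 30.1% of these windows, in 20.8% of 8435 windows of genes tested and in 8.86% of all 32851 windows. The E-box was in 13.3%, 11% and 7.15% of the same windows, a YY1-type motif (AAGATGGCG) in 4.82%, 3.78% and 1.4%, and an NRF1-type motif in 1.2%, 2.43% and 0.971%, both strands searched. The ETS-type motif was in 20 of the 64 members, both genes that rose and genes not called with isotype (Sf3b2, Srsf5 and Prpf6). Hnrnpab, Snrpa1 and Srsf2 rose without it, and Prpf39, which fell, has an E-box. A match is a description of these letters only.

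Sf3a2 had 61.1, 56.6 and 58.1 CPM in the unstimulated isotype libraries and 189, 171 and 166 CPM with anti-CD3, a log2 fold change of 1.54 (SE 0.11, edgeR adjusted p = 2.22e-11). Sf3a1 rose by 1.22 (SE 0.13) and Sf3a3 by 1.11 (SE 0.14), and with anti-LAIR-1 in both wells the 3 genes rose by 1.48, 1.30 and 0.91. The groups did not overlap for any of the 3, as in 73.5% of all genes with isotype and 74.9% with anti-LAIR-1.

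In SF3b the subunits parted. Sf3b3, Sf3b4 and Sf3b5 rose by 1.46, 1.39 and 1.34, whereas Sf3b1 (chr1:54985169-55027481), the large subunit that contacts the branch point, fell. Sf3b1 had 708, 833 and 716 CPM unstimulated and 493, 559 and 495 CPM after anti-CD3 with isotype, 0.669 times its unstimulated level (log2 fold change -0.58, SE 0.09, edgeR adjusted p = 4.51e-06). The 3 stimulated libraries lay below the 3 unstimulated ones, and 73.5% of all genes had no overlap with isotype. With anti-LAIR-1 in both wells Sf3b1 fell by 0.46 on the log2 scale (SE 0.07). Sf3b2, named after its values were seen, was not called in either comparison (log2 fold change 0.15, SE 0.11, with isotype). Sf3b4 shares its 3′ end with 1 pseudogene.

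Among the proteins of the U4/U6.U5 tri-snRNP, 4 of 5 rose with isotype, against 35.3% of all genes. Prpf31, a protein of the U4/U6 snRNP, went from 31.0, 16.7 and 35.0 CPM to 89.7, 80.2 and 83.2 CPM with isotype, a log2 fold change of 1.59 (SE 0.17). Its reads and those of the antisense gene Gm15927 cannot be told apart without strand. Prpf8, the scaffold of the catalytic centre, rose less, by 0.52 (SE 0.10), and Prpf6 was not called at -0.10. Of the other Prpf genes, Prpf19, the ubiquitin ligase of the Prp19 complex, rose 3.07-fold from 31.4, 22.0 and 35.5 CPM to 88.8, 98.4 and 90.7 CPM.

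The SR proteins rose in 8 of 9 cases with isotype, against 35.3% of all genes. Srsf5 was the exception at 0.18 (SE 0.11), named after its values were seen. Srsf2, also known as SC35, had 712, 725 and 751 CPM in the unstimulated isotype libraries and 2204, 2613 and 2352 CPM with anti-CD3. That was a 3.2-fold rise (log2 fold change 1.68, SE 0.08, edgeR adjusted p = 2.39e-14). The groups did not overlap, as in 73.5% of all genes. Srsf2 overlaps the antisense gene Mettl23. Srsf9, at 14.2, 21.2 and 24.2 CPM unstimulated, reached 55.9, 63.7 and 55.3 CPM and rose by 1.55 (SE 0.18). The shuttling SR proteins Srsf1, Srsf3 and Srsf7 rose by 1.32, 1.30 and 1.44, and with anti-LAIR-1 in both wells by 1.16, 1.32 and 1.46.

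Of the hnRNP genes, 13 of 15 rose with isotype, against 35.3% of all genes. Hnrnpab, a CArG box and RNA binding protein, went from 470, 427 and 424 CPM to 1773, 1729 and 1740 CPM, a 3.87-fold rise with the smallest adjusted p of all members (log2 fold change 1.95, SE 0.08, edgeR adjusted p = 1.19e-15). Its 3′ end matches 5 other genes and overlaps Phykpl on the other strand, so that its count is less certain. Hnrnpu, a nuclear scaffold protein, rose by 1.60 (SE 0.09) from 237, 231 and 230 CPM to 711, 729 and 733 CPM. Smaller rises were seen for Hnrnpc (1.20), Hnrnpd (1.14), which binds AU-rich elements, and Hnrnpk (0.78). Hnrnpl, a repressor of CD45 exons, stayed near 0 with isotype (log2 fold change 0.00, SE 0.10) and was higher with anti-LAIR-1 in both wells (0.31, SE 0.08, edgeR adjusted p = 0.00318). The difference between these 2 values was not called (interaction 0.28, SE 0.13, edgeR adjusted p = 0.375).

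Hnrnpul2 was the hnRNP gene that fell. It had 52.5, 78.6 and 86.1 CPM unstimulated and 45, 41.9 and 45.9 CPM after anti-CD3 with isotype, a log2 fold change of -0.72 (SE 0.15, edgeR adjusted p = 0.000212). With anti-LAIR-1 in both wells it fell by 0.67 (SE 0.11). In both comparisons the libraries did not overlap, as in 73.5% of all genes with isotype and 74.9% with anti-LAIR-1.

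Of the 13 Lsm genes tested with isotype, 8 rose and 3 fell, against 35.3% higher and 36.1% lower among all genes tested. All 7 genes of the cytoplasmic LSm1 to LSm7 ring, which takes part in mRNA decay and shares all subunits but LSm1 with the U6 ring, rose with isotype, by 0.36 to 1.61. Lsm7 led with 43.3, 35.8 and 29.1 CPM unstimulated and 108, 114 and 121 CPM with anti-CD3, Lsm2 rose by 1.37 (SE 0.16) and Lsm1 by 0.74 (SE 0.18). Lsm5 and Lsm7 each have 2 pseudogenes with a matching 3′ end, and Lsm3 overlaps another transcript on its own strand. The LSm8 subunit that marks the U6 ring is listed in the table as Naa38 on chromosome 6, outside the prefix rule, and was not called (log2 fold change 0.22, SE 0.14, edgeR adjusted p = 0.17).

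Lsm10 and Lsm11, which replace a pair of Sm proteins in the U7 snRNP that processes histone transcripts, went the other way. Lsm10 had 65.4, 61.9 and 62.4 CPM unstimulated and 46.5, 45.7 and 44.8 CPM with anti-CD3 with isotype, a log2 fold change of -0.51 (SE 0.13, edgeR adjusted p = 0.00105). Lsm11 had 14.9, 25.7 and 19.9 CPM and 9.96, 11.6 and 13.8 CPM, a log2 fold change of -0.77 (SE 0.24, edgeR adjusted p = 0.00639). In this comparison the groups did not overlap for either gene, as for 73.5% of all genes. With anti-LAIR-1 in both wells Lsm10 fell by 0.54 (SE 0.14), and Lsm11 was not called at -0.45 (edgeR adjusted p = 0.06). Lsm14b, an RNA granule protein, and Prpf39, a U1-associated factor that overlaps antisense Fkbp3, fell by 0.53 and 0.35 with isotype and by 0.63 and 0.35 with anti-LAIR-1. Lsm12, outside the ring, rose from 28.4, 21.2 and 18.8 CPM to 59.8, 68.1 and 72.3 CPM with isotype (log2 fold change 1.49, SE 0.16) and by 1.67 (SE 0.19) with anti-LAIR-1. Lsm14a, the paralog of Lsm14b, was not called in either (-0.09 and 0.06). The falls of these 4 genes were the least certain: with the mouse as a block, DESeq2 gave adjusted p = 0.0568 for Lsm10, 0.0867 for Lsm11, 0.24 for Lsm14b and 0.263 for Prpf39, while edgeR with the same block called all 6 falls. With anti-LAIR-1 in both wells, DESeq2 with the block gave 0.0818 for Lsm14b and 0.197 for Prpf39, whose call was lost in 6 of 17 alternatives in each comparison. Without mouse 2 of the unstimulated isotype group, edgeR called 3 falls.

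**Figure D3:**
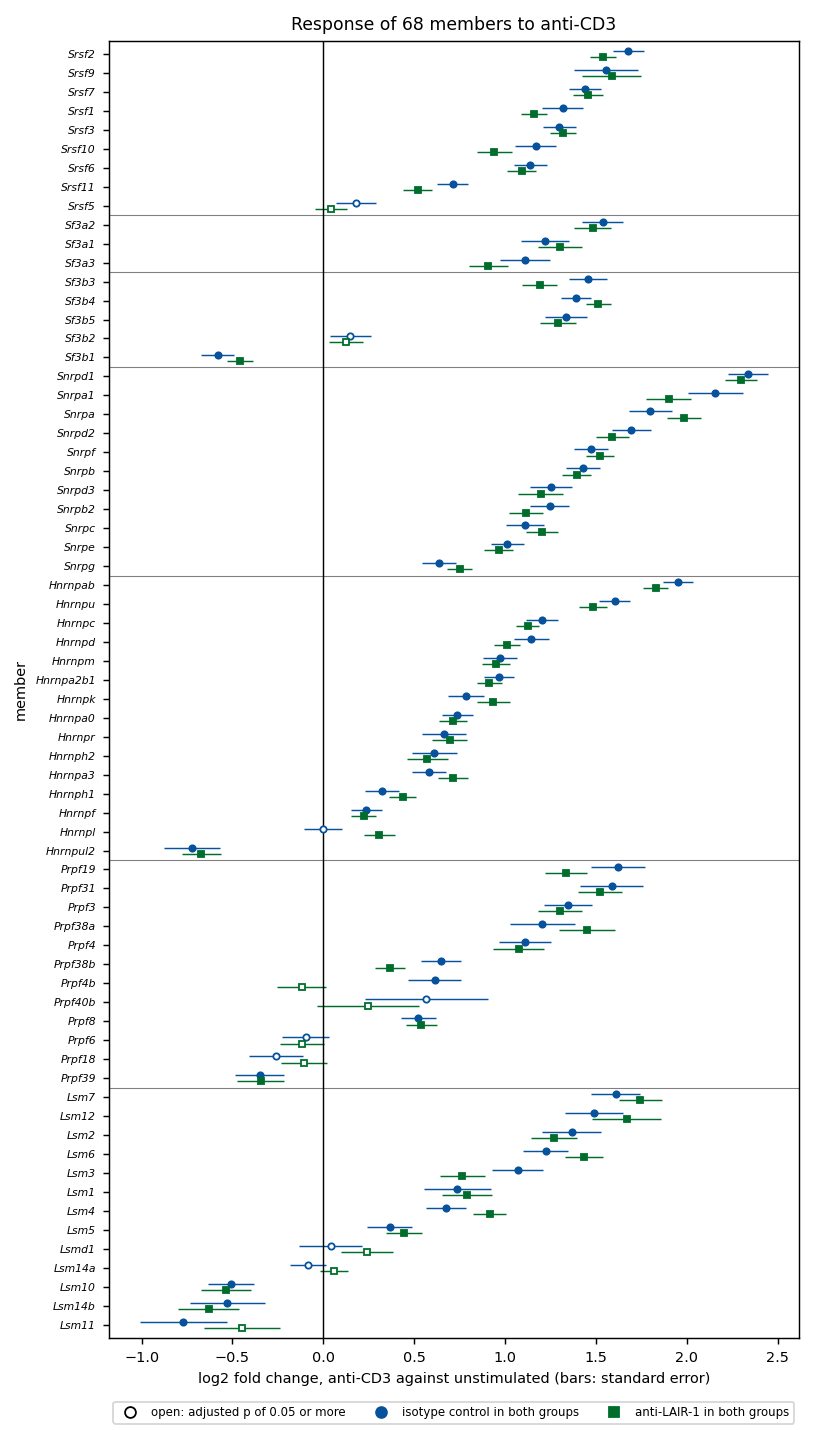
Log2 fold change with anti-CD3 against no anti-CD3 (x axis) of 68 members grouped by prefix, with bars for the standard error, blue circles for isotype in both groups and green squares for anti-LAIR-1 in both groups. Filled symbols have an adjusted p under 0.05; the Snrp block lies wholly right of 0, up to 2.33 for Snrpd1, and Sf3b1, Hnrnpul2, Lsm10, Lsm11, Lsm14b and Prpf39 lie left of 0.

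The study's question was what LAIR-1 ligation changes during stimulation. Among stimulated cells, anti-LAIR-1 against isotype called 0 of 70 members higher and 3 lower, among them Prpf4b and Snrpd2, while 3.90% of 8800 genes tested were higher and 1.86% lower. At an unadjusted p under 0.05 there were 14 members, against 18.8% of all genes. The shifts were small: the median log2 fold change was -0.09 over the members and 0.00 over all genes, and 56 of the 70 were below 0 compared with 49.4% of all genes. In 19 members the 3 anti-LAIR-1 libraries all lay below the 3 isotype libraries and in 2 members all above, while 24.0% of all genes did not overlap and 11.1% had all 3 libraries below. The mouse by mouse medians were -0.03, -0.09 and -0.09.

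Snrpd2 had 299, 326 and 322 CPM with isotype and 247, 269 and 280 CPM with anti-LAIR-1, a log2 fold change of -0.26 (SE 0.07, edgeR adjusted p = 0.0467). This call was close to the threshold: it was lost in 9 of 17 alternatives, among them 5 of the 6 fits that left out a library and DESeq2 with the mouse as a block (adjusted p = 0.0996). Prpf4b (chr13:34875302-34906064), a kinase that phosphorylates tri-snRNP proteins, had 50.1, 61.4 and 56.7 CPM with isotype and 43.8, 44.5 and 38.3 CPM with anti-LAIR-1, a log2 fold change of -0.42 (SE 0.11, edgeR adjusted p = 0.0364). Its call was lost in 8 of 17 alternatives, 5 of them left out a library and 1 was DESeq2 with the block (adjusted p = 0.235). Both genes remained below 0 in every alternative run.

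Other members with a large rise on anti-CD3 were not called here. Snrpd1 had a log2 fold change of -0.15 (SE 0.07, edgeR adjusted p = 0.258), Snrpa1 -0.17 (SE 0.09), Hnrnpab -0.16 (SE 0.06) and Srsf2 -0.10 (SE 0.07). Sf3b1 stood at -0.06 (SE 0.07).

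**Figure D4:**
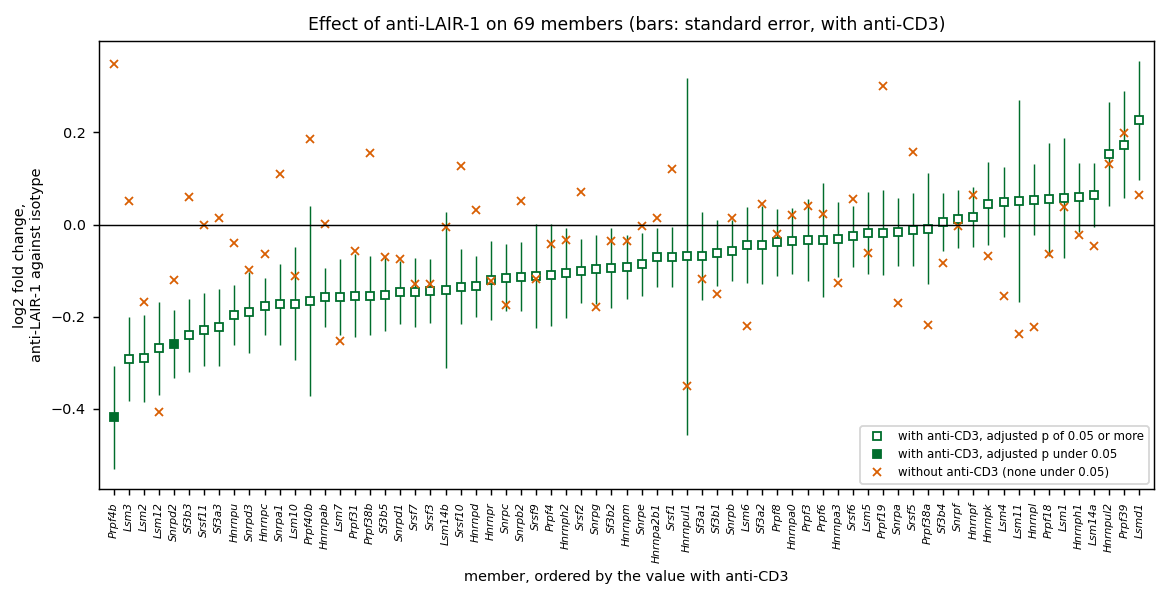
Log2 fold change of anti-LAIR-1 against isotype for 69 members (x axis, ordered by the value with anti-CD3), as green squares with standard errors with anti-CD3 and orange crosses without it. The 2 filled squares are Prpf4b and Snrpd2; most squares lie a little below 0, and the Prpf4b cross is the highest of all at 0.35.

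Without anti-CD3, anti-LAIR-1 changed none of the 70 members at an adjusted p under 0.05. The main edgeR fit called 0 of 8770 genes tested (0%), and DESeq2 called 0 of 13259. Without the filter on low counts edgeR called 3 genes higher and 2 lower, none of them members. Without mouse 2 of the unstimulated anti-LAIR-1 group it called 1 gene lower, again not a member. At an unadjusted p under 0.05 edgeR gave 3 members, against 4.38% of all genes, and DESeq2 gave 1. Those with the smallest p were Prpf4b (log2 fold change 0.35, SE 0.16), Hnrnpl (-0.22, SE 0.11) and Snrpg (-0.18, SE 0.08), each with an edgeR adjusted p of 0.997. The members ranged from -0.41 to 0.35 with a median of -0.04. Simulated counts with 200 genes changed 2-fold gave back 75.5% of them in this comparison, so smaller differences may have gone unseen at this depth.

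The test of the difference between the stimulated and unstimulated effects of anti-LAIR-1 called 1 of 70 members, Prpf4b, against 0.249% of 9223 genes called lower and 1.82% called higher. Prpf4b was 1.27-fold higher with anti-LAIR-1 in unstimulated cells (not called), at 40.3, 31.4 and 35.5 CPM with isotype and 54.5, 39.5 and 43.5 CPM with anti-LAIR-1, and lower in stimulated cells. The difference was -0.76 on the log2 scale (SE 0.20, edgeR adjusted p = 0.0409). In terms of anti-CD3, Prpf4b rose by 0.61 with isotype (SE 0.15) and had a log2 fold change of -0.12 with anti-LAIR-1 (SE 0.13). At an unadjusted p under 0.05 there were 5 members, against 12.2% of all genes. Prpf38b, another of these 5, had -0.31 (SE 0.14, edgeR adjusted p = 0.367). The call for Prpf4b was lost in 11 of 22 alternatives: DESeq2 with the mouse as a block (adjusted p = 0.0513), the thinned libraries (0.13), and 9 of the 12 fits that left out a library (up to 0.156).

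Other genes of the splicing machinery were taken from 6 lists of 124 symbols outside the prefix rule, of which 123 were in the table. These lists too were chosen with earlier results of these data known. With isotype, 76 of 122 tested were higher with anti-CD3 and 15 lower, against 35.3% higher and 36.1% lower among all 8690 genes, the background for each list's count. When both wells held anti-LAIR-1, 73 were higher and 16 lower, against 36.4% and 36.3% of all genes. Factors that assemble and import snRNPs rose in 13 of 17 cases and fell in none, led by Wdr77, a partner of the methylase Prmt5 that modifies Sm proteins, and Smn1, the SMN protein, with log2 fold changes of 2.41 and 2.12. Wdr77 went from 40, 41.1 and 43.0 CPM to 225, 221 and 230 CPM. The 3′ splice site and branch point factors rose in 10 of 12 cases, with U2af1 at 1.76 and U2af2 at 1.68, and the snRNP proteins without the prefix in 13 of 21 cases, with Nhp2l1, now called Snu13, at 2.25 and the SF3b subunit Phf5a at 1.61. Zrsr1 and Zmat5, both linked to the minor spliceosome, fell by 1.8 and 0.54. The Zmat5 call was lost in 6 of 17 alternatives, among them DESeq2 without and with the mouse as a block (adjusted p = 0.0947 and 0.165) and the fits without mouse 2 of the unstimulated isotype group (0.0984) and mouse 1 or 3 of the anti-CD3 isotype group (0.0707 and 0.0532).

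The Prp19 complex and catalytic step factors gave 12 of 22 higher, with Ppie at 1.60 and Isy1 at 1.42, and 2 lower, Syf2 at -0.79 and Slu7 at -0.36. The Slu7 call was lost in 5 of 17 alternatives, among them DESeq2 without and with the block (adjusted p = 0.0864 and 0.19) and the fits without mouse 2 of the unstimulated (0.116) or the anti-CD3 (0.082) isotype group. SR-related proteins and kinases gave 10 of 20 higher and 3 lower, against the same 35.3% and 36.1% of all genes. Luc7l and Rnps1 rose by 1.47 and 1.22. The SR protein kinases Srpk2 and Clk1 fell by 2.41 and 1.58: Srpk2 from 99.8, 115 and 87.7 CPM to 15.7, 19.5 and 22.3 CPM and Clk1 from 366, 343 and 332 CPM to 122, 106 and 127 CPM. The groups did not overlap for either kinase, as for 73.5% of all genes.

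Of the hnRNP-class regulators without the prefix, 18 of 30 were higher and 8 lower with isotype, against 35.3% and 36.1% of all genes. Hnrpll (current symbol Hnrnpll), a repressor of CD45 exons in activated T cells, rose most, from 19.8, 10.2 and 20.4 CPM to 109, 114 and 113 CPM (log2 fold change 2.70, SE 0.17), followed by Syncrip at 1.77. Cirbp and Celf2 fell by 2.44 and 2.31.

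With anti-LAIR-1 in stimulated cells, 1 of 122 of these genes was higher and 4 were lower, against 3.90% and 1.86% of all genes. Hnrpll had 90.1, 82.9 and 74.9 CPM with anti-LAIR-1, below the isotype libraries in all 3 mice (log2 fold change -0.44, SE 0.09, edgeR adjusted p = 0.00611). In unstimulated cells it had 23.2, 29.9 and 23.2 CPM with anti-LAIR-1, none of 121 of these genes was called there by edgeR (1 at an unadjusted p under 0.05), and the difference between the effects of anti-LAIR-1 was called at -1.04 (SE 0.23, edgeR adjusted p = 0.0121). The interaction of Hnrpll was lost in 2 of 22 alternatives, the thinned libraries (-0.85, adjusted p = 0.144) and the fit without mouse 2 of the unstimulated isotype group (-0.78, adjusted p = 0.0574). Celf2, an RNA binding splicing regulator, had 77.3, 84.0 and 88.2 CPM with isotype and anti-CD3 and 117, 127 and 128 CPM with anti-LAIR-1 and anti-CD3, a log2 fold change of 0.56 (SE 0.09, edgeR adjusted p = 0.000654). The interaction called Celf2 higher (0.55, SE 0.12, edgeR adjusted p = 0.0113) and no gene of these lists other than it and Hnrpll. Luc7l3, Luc7l and Rbm25, associated with the U1 snRNP or SR-like in sequence, fell by 0.42, 0.28 and 0.26. Rbm25 was lost in 8 of 17 alternatives (adjusted p up to 0.144), 5 of them fits without 1 library, all but that without mouse 3 of the isotype group. Luc7l and Luc7l3 were lost in 3 each: Luc7l with all 12 libraries in 1 fit (adjusted p = 0.11) and without isotype mouse 1 (0.0787) or anti-LAIR-1 mouse 2 (0.0731), and Luc7l3 without isotype mouse 2 (0.132) or anti-LAIR-1 mouse 1 (0.0577) or 3 (0.0894).

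**Figure D5:**
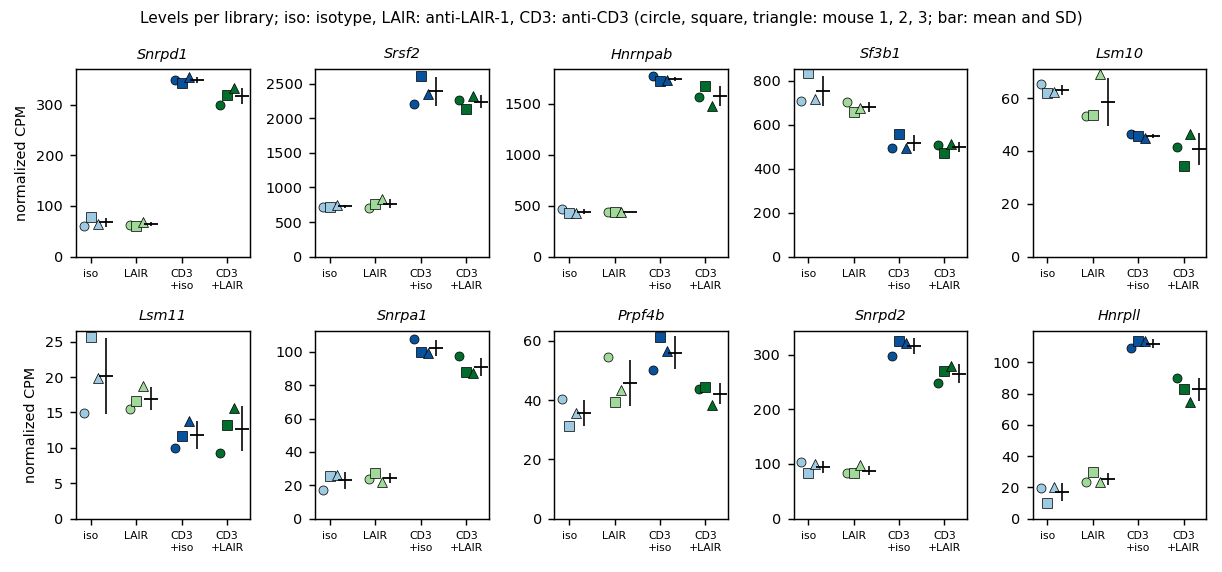
Normalized CPM (y axes from 0) of 9 members and of Hnrpll in every library, with circle, square and triangle for mice 1, 2 and 3 and the bar giving the mean and SD of each group of 3. Snrpd1, Snrpa1, Srsf2 and Hnrnpab are higher with anti-CD3, Sf3b1, Lsm10 and Lsm11 lower, and Prpf4b, Snrpd2 and Hnrpll are lower with anti-LAIR-1 than with isotype among the stimulated libraries.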

How the data were processed

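RNA of 12 libraries (3 mice in each of 4 conditions) was measured by an adapted CEL-seq protocol. The authors aligned read 2 to the mouse mm10 transcriptome with BWA MEM, discarded reads that mapped equally well to several places, and deposited the counts per gene symbol without normalization. Whether molecular identifiers were collapsed is not given in the sources used here, so limits of detection cover counting error only. Members and lists were chosen with earlier results of these data known.

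Counts were compared with edgeR 4.0.16 in R 4.3.3: TMM, filterByExpr, the quasi-likelihood F-test on the 2 groups compared (all 12 libraries for the interaction), p-values adjusted by Benjamini and Hochberg's method across every gene in the fit, and calls at 0.05. Standard errors were derived from the fold change and F. Levels are CPM with TMM factors of all 12 libraries. With 3 libraries a group, an exact permutation test cannot give p under 0.1, and none was used. Libraries of a group differed beyond sampling noise. Each mouse gave a well to each condition, according to the titles and methods, and the study states no block. After subtracting each group's mean, the 18 pairs of libraries from 1 mouse had an average r of 0.0432 across genes.

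Alternatives were DESeq2's size factors, the upper quartile and library totals in edgeR, DESeq2 1.42.0, the mouse as a block in both tools, no filter, at least 10 counts in every library, all 12 libraries in 1 fit, and each library left out. Thinning to 1781218 counts, and fits without Rn45s and the mitochondrial genes, were chosen after seeing the data. On simulated counts with 200 genes changed 2-fold, edgeR called 76.5% and 84.0% of them in the anti-CD3 comparisons with isotype and anti-LAIR-1. It called 81.5% of them for anti-LAIR-1 with anti-CD3. False calls made up 8.93%, 5.62% and 5.78% of edgeR's calls in these comparisons, and 2.88%, 3.25% and 2.63% of DESeq2's. For anti-LAIR-1 without anti-CD3 the shares were 10.7% and 3.62%, and for the interaction 2.38% and 3.97%. In the simulation edgeR's share was the higher in all comparisons but the interaction. A false share depends on how many genes change. With anti-CD3 and isotype, 3065 of 8690 genes were called higher and 3134 lower, far more than the 200 simulated. These shares therefore describe the simulation and do not give the share of false calls in the data. Calls of edgeR close to the threshold remain less certain.

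Named are the called members that moved alike in all 3 mice (the 12 highest and 12 lowest for anti-CD3, 8 and 8 otherwise), the 3 smallest p where fewer than 3 were called, a fixed list of members, and the 2 highest and 2 lowest called genes of each list. Prmt5 and members that fell outside this rule were named after their values were seen. Symbols were matched to GENCODE and RefSeq (GRCm38), and 3′ ends (500 bases) were compared with blastn (at least 97% identity over 60 bases). Values of 1 member are not reported here, and it is left out of the plots by gene, though the counts and sums include it.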

Additional observations from a re-analysis of the deposited data

Results flagged for a closer look

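The effect of anti-LAIR-1 on Prpf4b differed between stimulated and unstimulated cells by a test of the difference itself (interaction -0.76 on the log2 scale, SE 0.20, edgeR adjusted p = 0.0409), but this call was lost in 11 of 22 alternatives, DESeq2 with the mouse as a block among them (adjusted p = 0.0513). The log2 fold change of anti-LAIR-1 against isotype was -0.42 with anti-CD3 and 0.35 without it, and all 3 mice showed the negative difference. By the same test the effect differed for Hnrpll (interaction -1.04, edgeR adjusted p = 0.0121, lost in 2 of 22 alternatives, negative in 3 of 3 mice) and Celf2 (0.55, edgeR adjusted p = 0.0113, lost in 0 of 22, positive in 3 of 3 mice).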

How the results depend on the processing

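The counts of members higher with anti-CD3 stayed within 1.5 times the reported counts in every alternative run. Members lower with anti-CD3 and isotype numbered 2 in DESeq2 with the mouse as a block and 3 to 6 with each library left out. With anti-LAIR-1 in both wells they numbered 9 with the upper quartile, 3 in DESeq2 with the block and 4 to 6 with each library left out. Members lower with anti-LAIR-1 in stimulated cells numbered 5 in DESeq2, 1 in DESeq2 with the block, 6 without a filter on low counts, 1 with all 12 libraries in 1 fit and 1 to 2 with each library left out. The interaction called 0 members lower in DESeq2 with the block and in libraries thinned to the smallest total, and 0 to 1 with each library left out. edgeR with the mouse as a replicate block gave 55 higher and 6 lower, 55 and 5, 0 and 3, 0 and 0, and 0 and 1 in the 5 comparisons and changed no call of a member; the cause of the other changes was not tested.

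Signs turned only in genes that were not called in the main fit. Lsm14a with isotype was 0.0064 without a filter and -0.16 to 0.0015 with each library left out. With the upper quartile it was called lower with isotype (-0.26, edgeR adjusted p = 0.021). With anti-LAIR-1 in both wells Lsm14a was -0.15 with the upper quartile and -0.052 with library totals. For anti-LAIR-1 with anti-CD3, Sf3b4 was -0.0017 with DESeq2's size factors, -0.0050 in DESeq2 and -0.0047 in DESeq2 with the block. With each library left out, Sf3b4 ranged from -0.022 to 0.040, Lsm1 from -0.055 to 0.16, Prpf19 from -0.080 to 0.042, Hnrnpk from -0.028 to 0.12 and Snrpa from -0.066 to 0.022. With the upper quartile the median of all genes shifted to -0.20 with isotype and -0.24 with anti-LAIR-1, and with library totals to -0.12 and -0.15; 52 or 53 members were still higher. Over the alternatives the genes of the 6 other lists gave 65 to 81 higher and 12 to 22 lower with anti-CD3 and isotype, and 2 to 10 lower with anti-LAIR-1 and anti-CD3.

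Depth limits the genes near 3 counts (0.404 to 1.61 CPM), and 3 mice a group limit small differences: 2-fold changes in simulated counts were called in 61.5% of cases for the interaction.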
